A study of Homo sapiens with 12 samples.

Results

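TYMS, RRM1, RRM2, TK1, CAD, UMPS, IMPDH2, PPAT and GART encode enzymes that make the building blocks of RNA and DNA. These 9 genes were taken by their symbols from the 15798 genes of a ribosome profiling table of HCT116 cells, an established human colorectal cancer cell line, and all 9 were measured in every library. The cells had received 100 nM trametinib (TRAM), a drug that blocks the MEK kinases upstream of ERK, or its solvent DMSO, for 24 h, and all groups were otherwise the same line in the same medium. The 4 groups were DMSO_IN, DMSO_RPF, TRAM_IN and TRAM_RPF with 3 libraries each, where IN (input) is cytoplasmic RNA broken at random and RPF (ribosome protected fragments, or footprints) is the mRNA that ribosomes shielded from RNase I. The series describes its replicates as biological. Values below are normalized counts, that is, reads within the coding sequence divided by a size factor for the library. A change is the log2 of TRAM relative to DMSO, given with its standard error (SE), and ribosome density means footprints relative to input. A gene was called where the adjusted p-value of edgeR's quasi-likelihood test, after Benjamini-Hochberg adjustment over all genes tested, was under 0.05.

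Nucleotides reach a cell's pools by several routes. In de novo purine synthesis, PPAT starts the ring on an activated ribose, the trifunctional enzyme GART carries out later steps, and IMPDH2 opens the branch to guanine nucleotides. In de novo pyrimidine synthesis, the multifunctional protein CAD starts the ring and UMPS completes it as UMP. Ribonucleotide reductase, an assembly of the large subunit RRM1 and the small subunit RRM2, converts ribonucleotides into deoxynucleotides. TYMS then turns dUMP into dTMP, and TK1 reaches the same product by phosphorylating thymidine that is taken up or recycled. RRM2, TYMS and TK1 are known as genes that cells express mainly while they copy their DNA, and TYMS is the enzyme blocked by fluorouracil, a drug long used in colorectal cancer.

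The libraries held 2276693 to 2845568 reads in coding sequences for input and 10127477 to 19181588 for footprints. Over all genes tested, the median SE of a log2 change was 0.217 in input, 0.152 in footprints and 0.266 in ribosome density. For TYMS and RRM1, unlike the other enzymes, the SE was larger in footprints than in input. Replicate 1 of DMSO stood apart from the other DMSO replicates in both assays. Its deviations from the group mean in input and footprints correlated with an r of 0.816 over 7669 genes, which are not independent replicates, against 0.181 and 0.343 for replicates 2 and 3. Of 10 genes of ERK pathway output, 10 were lower in TRAM in both assays, with DUSP6, an ERK phosphatase that ERK itself induces, at -7.64 in input and -8.27 in footprints. Of 8 epithelial markers 7 passed the filter on low counts, and CDH17 did not. Of these 7, 5 were called higher in input and 6 in footprints, with median changes of 0.68 and 0.69, and their part in the results was not tested. The markers PTPRC, CD3E, PECAM1 and COL1A2 of blood, vessel and connective tissue cells had at most 3 reads in any library, COL1A1 and VWF reached 148 and 31, and ALB is not listed. In such bulk samples, fewer cells of a kind and less RNA per cell cannot be told apart.

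After trametinib, footprints were lower for all 9 enzymes and input mRNA for 7 of them. In footprints the fall was deepest for the 4 enzymes of deoxynucleotide supply, RRM2, TYMS, RRM1 and TK1, which dropped to between 3.00% and 24.5% of DMSO. The enzymes of the purine and pyrimidine rings kept between 45.2% and 73.6%. These percentages are relative, because libraries were scaled to each other. The study reports, from polysome profiling, that trametinib lowered global protein synthesis in this cell line. A fall of footprints shared by all mRNAs would not show in these percentages or in ribosome density. In input, 7 of 9 were called lower and 0 higher, against 16.9% of all 10663 genes tested called lower and 15.4% called higher. In footprints, 9 of 9 were called lower and 0 higher, against 25.6% and 23.8% of all genes tested. The values of the 3 TRAM libraries lay below those of the 3 DMSO libraries for 7 of 9 enzymes in input and for 9 of 9 in footprints, which held for 23.3% and 30.3% of all genes tested. In ribosome density, 0 of 9 were called lower and 0 higher by edgeR, against 1.04% and 0.0656% of all genes tested. The unadjusted edgeR p-value for ribosome density was under 0.05 for 2 of the 9, and for 848 of all 10663 genes tested. The median change of the 9 enzymes was -1.48 in input, -1.15 in footprints and -0.27 in ribosome density, where that of all genes tested was -0.01, -0.01 and 0.00. Scaling by library totals moved the median of all genes to 0.16 in footprints and the split of their calls from 2533 higher and 2726 lower to 3563 higher and 1932 lower, and 7 of the 9 enzymes were then called lower.

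**Figure D1:**
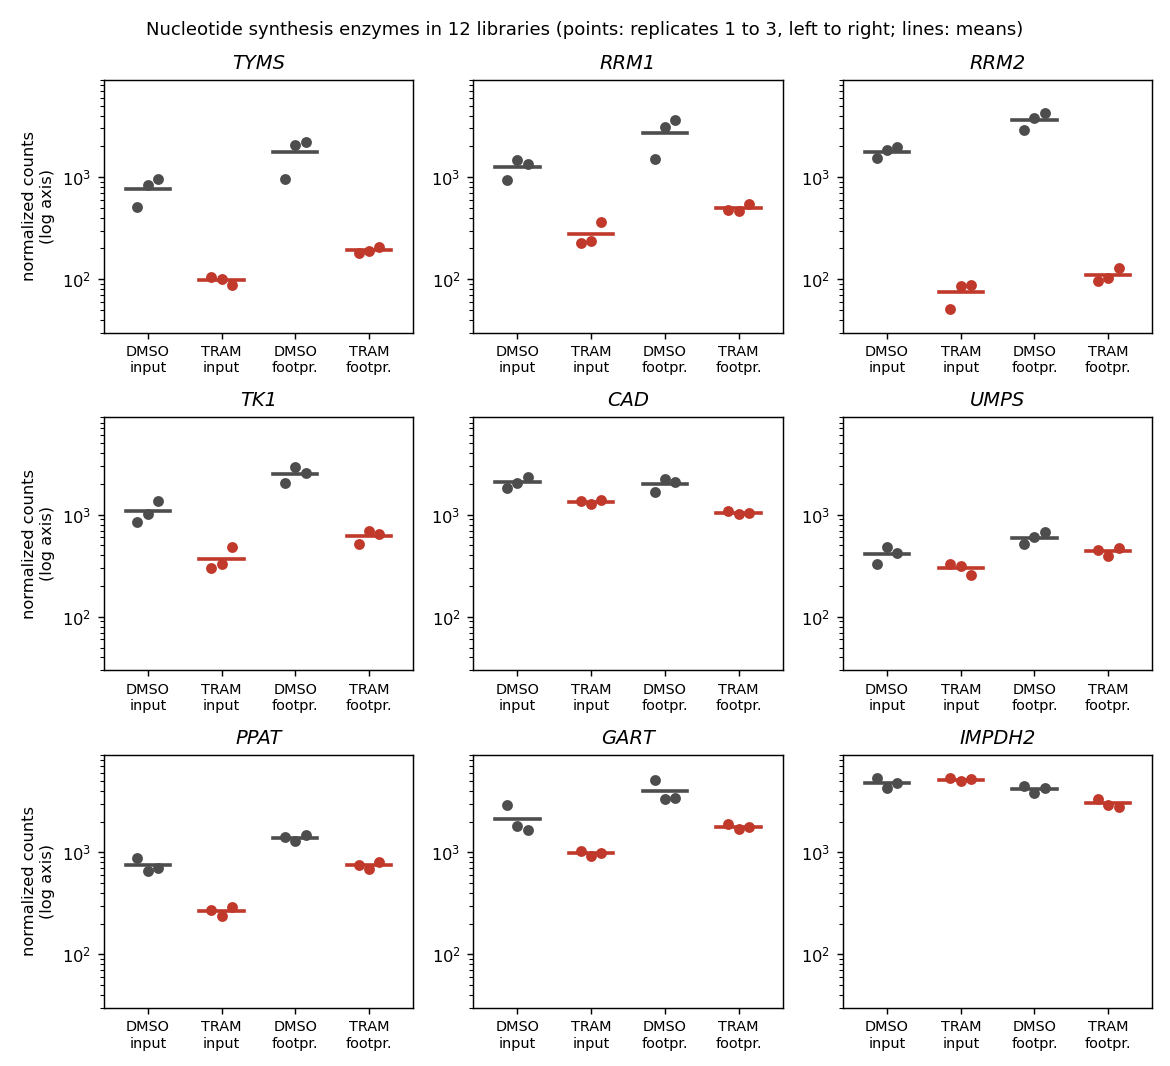
Normalized counts (log axis) of the 9 enzymes in each of the 12 libraries, with input on the left and footprints on the right of each panel, DMSO in grey and trametinib (TRAM) in red. Points are replicates 1 to 3 and lines are group means. The separation of grey and red is widest for RRM2 and TYMS, and the input values of UMPS and IMPDH2 overlap.

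The share of a library's reads is a measure that needs no size factor. In input the 9 enzymes together held 0.254% ± 0.012 of all reads in DMSO and 0.150% ± 0.004 in TRAM (SD, n = 3 in each). In footprints they held 0.340% ± 0.030 in DMSO and 0.143% ± 0.006 in TRAM (SD, n = 3 in each). The 4 enzymes of deoxynucleotide supply alone held 0.083% ± 0.018 of DMSO input and 0.014% ± 0.003 of TRAM input. Their share of footprints was 0.159% ± 0.043 in DMSO and 0.024% ± 0.002 in TRAM. In DMSO these 4 thus had a larger share of the footprints than of the input, and in each assay every TRAM library had a smaller share than every DMSO library.

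RRM2, the subunit of ribonucleotide reductase that carries the radical-generating iron site, changed the most (chromosome 2, 10122739 to 10131414, plus strand, 10 exons, 1167 coding bases in the MANE Select transcript of Gencode v44, GRCh38). Its input was 1544, 1836 and 1962 normalized counts in DMSO replicates 1, 2 and 3 and 50.5, 84.9 and 87.4 in TRAM. Its footprints were 2877, 3835 and 4215 in DMSO and 96.8, 104 and 127 in TRAM. No DMSO value came near a TRAM value in either assay. The change was -4.58 (SE 0.22, edgeR adjusted p = 5.50e-09) in input, or 24.0-fold lower, and -5.06 (SE 0.19, edgeR adjusted p = 1.81e-07) in footprints, or 33.4-fold lower. The TRAM input values rest on 21, 33 and 34 reads, while the TRAM footprints rest on 315, 253 and 268.

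RRM1, the subunit that holds the catalytic and allosteric sites of the same enzyme, had a smaller change than its partner (chromosome 11, 4094799 to 4138932, plus strand, 19 exons, 2376 coding bases). Its input was 936, 1486 and 1344 in DMSO and 226, 237 and 365 in TRAM, a change of -2.19 (SE 0.22, edgeR adjusted p = 5.92e-06). Its footprints were 1521, 3069 and 3592 in DMSO and 482, 462 and 549.9 in TRAM, a change of -2.45 (SE 0.30, edgeR adjusted p = 4.27e-04). DMSO replicate 1 was the lowest DMSO library in both assays, and without it the changes were -2.36 and -2.74. An antisense transcript, RRM1-AS1, covers 2.65% of the coding sequence.

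TYMS, thymidylate synthase, had the second deepest fall of the 9 (chromosome 18, 657653 to 673578, plus strand, 7 exons, 939 coding bases). Its input was 507, 829.7 and 953 in DMSO and 106, 100.4 and 87.4 in TRAM, and its change was -2.96 (SE 0.24, edgeR adjusted p = 6.30e-07), or 7.76-fold lower. Its footprints were 957, 2083 and 2222 in DMSO and 181, 188 and 207 in TRAM, and their change was -3.19 (SE 0.31, edgeR adjusted p = 1.51e-04), or 9.13-fold lower. DMSO replicate 1 was again the lowest of the DMSO libraries in both assays, and the changes without it were -3.18 and -3.49. Exons of ENOSF1, transcribed from the opposite strand, overlap 40.8% of the TYMS coding sequence, and those of the antisense RNA TYMSOS 11.3%. Whether the counting used strand is not given in the sources used here.

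TK1, the cytosolic thymidine kinase, fell in the same libraries (chromosome 17, 78174091 to 78187052, minus strand, 7 exons, 702 coding bases). Its input was 839, 1013 and 1377 in DMSO and 303, 329 and 478 in TRAM, a change of -1.54 (SE 0.22, edgeR adjusted p = 1.21e-04). Its footprints were 2053, 2951 and 2574 in DMSO and 521, 694 and 643 in TRAM, a change of -2.03 (SE 0.17, edgeR adjusted p = 1.48e-05). The groups did not overlap in either assay. Over the alternatives and the fits that left out a library, these 4 genes were called lower in input and footprints in every one.

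The promoters of these 4 genes are printed here because the genes fell together, with those of CAD and UMPS, which fell less or were not called in input, for comparison. Each line covers 150 bases before to 20 bases from the RefSeq start nearest to the start of the MANE Select transcript. Capitals mark matches, on either strand, to TTTGGCGC, TTTCCCGC, TTTGGCGG or TTTCCCGG (letters that E2F factors are known to bind), to the E box CACGTG, to the pentamer CCAAT of the CCAAT box or to the GC box GGGCGG. A match on the minus strand is shown as its reverse complement. No matches overlap in these lines.
RRM2, GRCh38.p14 chr2:10122589-10122758, plus strand: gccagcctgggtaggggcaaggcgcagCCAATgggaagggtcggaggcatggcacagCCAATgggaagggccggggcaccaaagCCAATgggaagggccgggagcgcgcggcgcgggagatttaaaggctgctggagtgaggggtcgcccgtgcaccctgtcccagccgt
RRM1, GRCh38.p14 chr11:4094535-4094704, plus strand: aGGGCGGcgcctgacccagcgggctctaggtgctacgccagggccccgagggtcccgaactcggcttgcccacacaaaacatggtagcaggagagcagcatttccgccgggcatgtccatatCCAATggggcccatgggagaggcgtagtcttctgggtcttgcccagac
TYMS, GRCh38.p14 chr18:657503-657672, plus strand: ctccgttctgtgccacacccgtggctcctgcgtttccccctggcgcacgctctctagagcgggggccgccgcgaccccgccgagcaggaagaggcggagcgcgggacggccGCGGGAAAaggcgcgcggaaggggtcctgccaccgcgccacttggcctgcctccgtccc
TK1, GRCh38.p14 chr17:78187033-78187202, minus strand: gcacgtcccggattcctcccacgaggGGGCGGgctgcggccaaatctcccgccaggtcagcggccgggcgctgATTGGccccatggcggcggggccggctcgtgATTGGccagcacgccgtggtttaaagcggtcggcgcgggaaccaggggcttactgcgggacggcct
CAD, GRCh38.p14 chr2:27217219-27217388, plus strand: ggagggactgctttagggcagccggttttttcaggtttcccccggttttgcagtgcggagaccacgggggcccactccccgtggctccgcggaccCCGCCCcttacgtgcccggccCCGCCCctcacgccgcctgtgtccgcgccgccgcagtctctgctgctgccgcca
UMPS, GRCh38.p14 chr3:124730302-124730471, plus strand: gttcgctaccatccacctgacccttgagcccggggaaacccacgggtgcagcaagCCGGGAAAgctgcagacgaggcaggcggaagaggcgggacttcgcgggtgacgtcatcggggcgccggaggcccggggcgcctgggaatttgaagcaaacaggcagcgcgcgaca

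RRM2 has 3 CCAAT boxes, which begin 123, 93 and 66 bases before the start, and at least 3 are found in 3.26% of the 35116 promoters of 300 bases in the table. TK1 has 2 inverted CCAAT boxes, 77 and 46 bases before the start, and at least 2 are found in 10.8%. TYMS holds TTTCCCGC on the minus strand 39 bases before the start, letters present in 1.63% of promoters, and UMPS holds TTTCCCGG, present in 1.48%. RRM1 has 1 CCAAT box and 1 GC box, but its RefSeq start lies 114 bases from the MANE Select start. CAD has 2 inverted GC boxes near the start. Among the 8 enzymes with an entry in the table, 3 (TYMS, UMPS and GART) held letters of the E2F type over the full 300 bases, against 4.31% of all promoters, 5 held a CCAAT box, against 34.6%, and 5 a GC box, against 45.0%. PPAT alone had CACGTG, 182 bases before its start, as did 7.26% of all promoters. RRM1 was the single enzyme of the 8 whose start was a C followed by at least 4 pyrimidines, the beginning of a 5′ terminal oligopyrimidine tract, which 4.07% of promoters share. A match is a run of letters and no evidence of binding. IMPDH2 is not in the table.

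**Figure D2:**
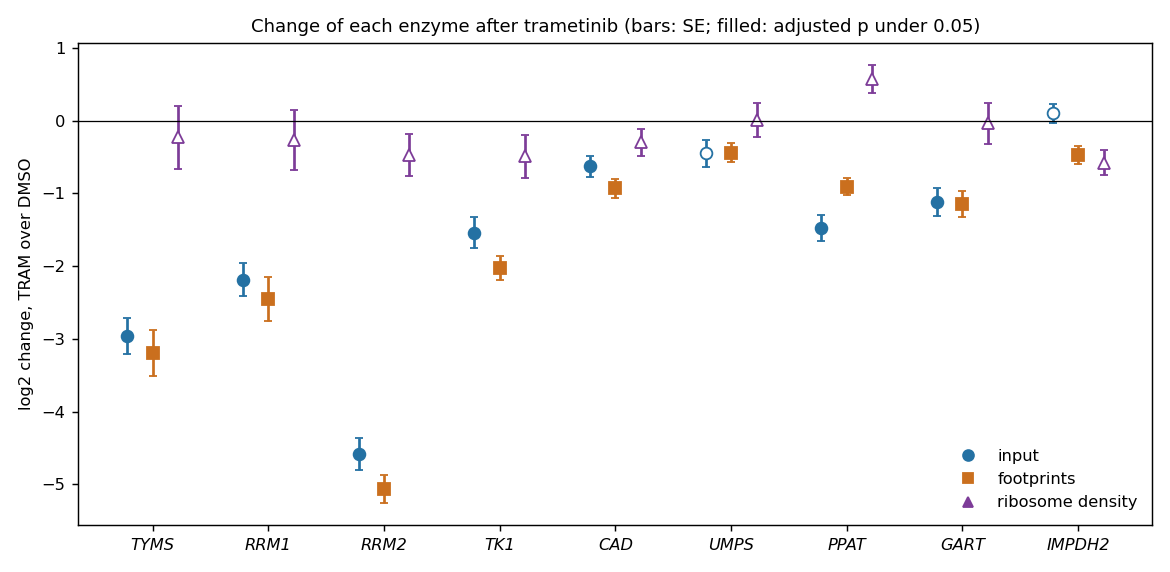
Log2 change of TRAM over DMSO for each enzyme in input (circles), footprints (squares) and ribosome density (triangles), with bars of 1 SE and filled symbols for calls at an adjusted p under 0.05 (edgeR). RRM2 lies lowest at -4.58 and -5.06, and no ribosome density symbol is filled.

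The pyrimidine ring enzymes changed less. CAD, which joins carbamoyl phosphate synthetase, aspartate transcarbamylase and dihydroorotase in a single chain and is known as a substrate of ERK and S6 kinase, has the longest coding sequence of the 9 (chromosome 2, 27217369 to 27243943, plus strand, 44 exons, 6675 coding bases). Its input was 1840.0, 2055 and 2327 in DMSO and 1374, 1266 and 1378 in TRAM, a change of -0.63 (SE 0.14, edgeR adjusted p = 0.00386). Its footprints were 1662, 2247 and 2073 in DMSO and 1089, 1021 and 1028 in TRAM, a change of -0.93 (SE 0.13, edgeR adjusted p = 4.01e-04). The groups did not overlap in either assay. UMPS, which forms orotidine monophosphate and decarboxylates it to UMP, had the lowest DMSO input of the 9, also per kb, where it overlapped with CAD (chromosome 3, 124730452 to 124749273, plus strand, 6 exons, 1440 coding bases). Its input was 328, 482 and 426 in DMSO and 332, 317 and 255 in TRAM, so that the lowest DMSO library fell among the TRAM values. The input change of UMPS, -0.45 (SE 0.19, edgeR adjusted p = 0.0846), was not called. It was called when estimated over all 12 libraries (-0.45, edgeR adjusted p = 0.0496) and without DMSO replicate 1 (-0.59, edgeR adjusted p = 0.0163). Its footprints were 513, 606 and 669.8 in DMSO and 455, 394 and 468 in TRAM, without overlap, and their change was -0.44 (SE 0.13, edgeR adjusted p = 0.0201). That call of UMPS was lost with library totals (-0.26, edgeR adjusted p = 0.117) and without DMSO replicate 2 or 3 or TRAM replicate 1 or 2, with changes between -0.47 and -0.35.

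Of the purine enzymes, PPAT, the amidotransferase that commits ribose to the purine ring, fell in both assays (chromosome 4, 56393362 to 56435615, minus strand, 11 exons, 1551 coding bases). Its input was 889, 657 and 698 in DMSO and 272, 239 and 293 in TRAM, a change of -1.48 (SE 0.18, edgeR adjusted p = 2.40e-05). Its footprints were 1416, 1292 and 1470.1 in DMSO and 744, 685 and 801 in TRAM, a change of -0.91 (SE 0.11, edgeR adjusted p = 1.88e-04). TRAM input thus kept 35.9% and TRAM footprints 53.4% of the DMSO mean. Exons of an antisense RNA known only by an identifier overlap 7.80% of the PPAT coding sequence. GART fell to a similar part of DMSO in each assay, 46.2% in input and 45.2% in footprints (chromosome 21, 33503933 to 33542117, minus strand, 22 exons, 3030 coding bases). Its input was 2884, 1826 and 1662 in DMSO and 1037, 921 and 987 in TRAM, a change of -1.11 (SE 0.19, edgeR adjusted p = 6.09e-04). Its footprints were 5163, 3316 and 3404 in DMSO and 1878, 1709 and 1779 in TRAM, a change of -1.15 (SE 0.17, edgeR adjusted p = 6.37e-04). Here DMSO replicate 1 was the highest library, the reverse of its place for TYMS, RRM1, RRM2 and TK1. Without it the changes of GART were -0.83 and -0.91, and both remained calls.

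IMPDH2, inosine monophosphate dehydrogenase, was the one enzyme of the 9 with a positive estimate in input (chromosome 3, 49024325 to 49029398, minus strand, 14 exons, 1542 coding bases). Its input was 5326, 4295 and 4799.8 in DMSO and 5299, 4989.7 and 5183 in TRAM, overlapping groups with a change of 0.10 (SE 0.13, edgeR adjusted p = 0.585). Its footprints were 4499.9, 3830.2 and 4243 in DMSO and 3356, 2886 and 2794 in TRAM, where every TRAM library was below every DMSO library. Their change was -0.48 (SE 0.12, edgeR adjusted p = 0.0107), or 1.39-fold lower. A further gene model of Gencode v44, known only by an identifier, runs through 93.6% of the IMPDH2 coding sequence on the same strand. The study mapped its reads to an earlier Gencode release, and whether that release holds this model was not checked. The footprint call was lost with library totals (-0.30, edgeR adjusted p = 0.0641), and narrowly without TRAM replicate 2 (-0.45, edgeR adjusted p = 0.0586) or TRAM replicate 3 (-0.43, edgeR adjusted p = 0.0512).

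Ribosome density asked whether the footprints of a gene moved beyond its mRNA, relative to the other genes. An input library was matched with the footprint library of its treatment that bears the same number, and the pair is called a dish. The labels give only the equal number. Per the study's methods, part of the lysate of each condition was kept for input RNA before RNase I was added. The deviations of input and footprints from their group means correlated with an r of 0.82, 0.18 and 0.34 in DMSO. In TRAM the r was 0.14, 0.080 and -0.12, over 7669 genes, which are not independent replicates. In DMSO the mean log2 of footprints over input was 1.25 for TK1, 1.16 for TYMS, 1.05 for RRM1 and 1.02 for RRM2, against a median of 0.04 over all genes tested. These 4 mRNAs were at or above the 86.8th percentile of ribosome density in DMSO. GART and PPAT followed at 0.91 and 0.91 and UMPS at 0.54. CAD and IMPDH2 were below the median, at -0.06 and -0.20.

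After treatment, IMPDH2 had the lowest ribosome density estimate of the 9. Its log2 density was -0.24, -0.17 and -0.18 in DMSO dishes 1, 2 and 3 and -0.66, -0.79 and -0.89 in TRAM dishes, with no overlap. The change of -0.58 (SE 0.17, edgeR adjusted p = 0.206) was not called. It was called with DESeq2's likelihood ratio test (-0.58, adjusted p = 0.0395), the kind of test that the study's methods give for differential translation. It was also called with a replicate block for each dish (-0.58, edgeR adjusted p = 0.0485). It was called in none of the other 7 alternatives with all libraries or the 13 fits that left libraries out. PPAT had the highest estimate, 0.57 (SE 0.20, edgeR adjusted p = 0.368), also not called, and its adjusted p in edgeR, DESeq2 or limma ranged from 0.0757 to 0.504 over the alternatives with all libraries. Its log2 density was 0.67, 0.98 and 1.08 in DMSO and 1.45, 1.52 and 1.45 in TRAM, again without overlap. CAD was the other enzyme whose dishes did not overlap, with -0.15, 0.13 and -0.17 in DMSO, -0.34, -0.31 and -0.42 in TRAM and a change of -0.30 (SE 0.19, edgeR adjusted p = 0.793). In all, 2 of the 9 had every TRAM dish below and 1 had every TRAM dish above the DMSO dishes, against 9.04% and 8% of all genes tested.

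For RRM2, TK1, RRM1 and TYMS the ribosome density changes were -0.47, -0.49, -0.27 and -0.23 with SEs of 0.29, 0.29, 0.41 and 0.44, and edgeR adjusted p-values of at least 0.781. The fit behind these values does not match input with footprints by dish. With a replicate block for each dish these 4 genes were not called either. The 4 estimates lay below 0, and each was smaller than the input change of its gene by a wide margin. UMPS and GART had ribosome density changes of 0.01 (SE 0.23) and -0.03 (SE 0.28), whose signs turned between scalings.

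**Figure D3:**
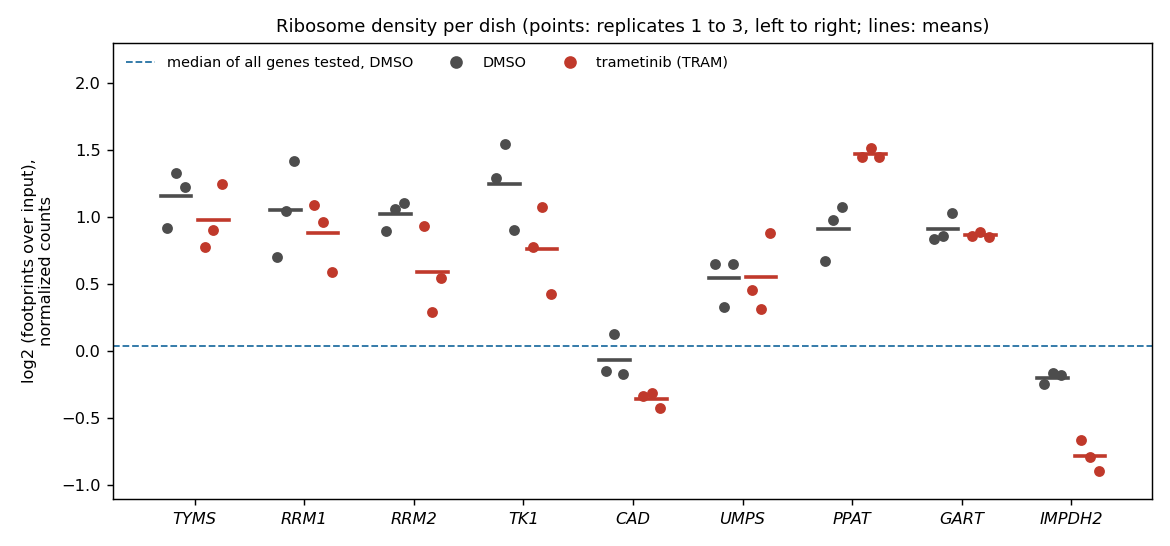
Log2 ratio of footprints to input (normalized counts) for the 9 enzymes in each DMSO dish (grey) and each TRAM dish (red), with points for replicates 1 to 3, lines for means and a dashed line for the DMSO median of all genes tested (0.04). CAD and IMPDH2 have all TRAM dishes below and PPAT all TRAM dishes above the DMSO dishes, and the other 6 overlap.

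Because a ratio of 2 genes within a library needs no scaling, the enzymes were also set against their partner or paralog, per kb of coding sequence. The ratio of RRM2 to RRM1, the subunits of the same enzyme, was 3.36, 2.52 and 2.97 in DMSO input and 0.455, 0.730 and 0.487 in TRAM input. In footprints it was 3.85, 2.54 and 2.39 in DMSO and 0.409, 0.458 and 0.472 in TRAM. RRM2 was thus above RRM1 in every DMSO library and below it in every TRAM library of both assays. The log2 ratio changed by -2.43 in input and -2.68 in footprints.

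RRM2B, the alternative small subunit known to be induced by p53 and to serve cells outside S phase, had input of 306 ± 10.3 in DMSO and 356 ± 18.9 in TRAM (SD, n = 3 in each). Its changes of 0.22 (SE 0.16, edgeR adjusted p = 0.330) in input and 0.21 (SE 0.11, edgeR adjusted p = 0.152) in footprints were not called. The ratio of RRM2 to RRM2B was 4.58, 5.22 and 5.95 in DMSO input and 0.124, 0.210 and 0.236 in TRAM input, and it was 4.17, 5.97 and 5.93 and 0.127, 0.143 and 0.145 in footprints. The log2 ratio changed by -4.83 and -5.26. The small subunit with more counts per kb was therefore RRM2 in every DMSO library and RRM2B in every TRAM library, in input and in footprints.

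TK2, the mitochondrial thymidine kinase, had an input change of 0.02 (SE 0.24, edgeR adjusted p = 0.960) and a footprint change of 0.14 (SE 0.20, edgeR adjusted p = 0.591), neither of them called. The ratio of TK1 to TK2 was 11.3, 16.1 and 21.5 in DMSO input and 4.46, 4.53 and 7.52 in TRAM input, and 30.8, 67.5 and 50.0 and 10.2, 12.0 and 9.11 in footprints. TK1 had more counts per kb than TK2 in every library. The log2 ratio changed by -1.56 in input and -2.19 in footprints, without overlap between treatments. The ratio of IMPDH2 to IMPDH1 overlapped between treatments, at 10.9, 7.04 and 5.29 in DMSO input and 9.76, 8.49 and 8.83 in TRAM input, and at 28.1, 14.1 and 14.4 and 17.8, 13.4 and 15.7 in footprints. Over the 8 ratios tested, the exact permutation p (two-sided) was 0.1 for the 6 ratios of RRM2 and TK1, the lowest p possible with 3 libraries on each side, and 0.133 after Benjamini-Hochberg adjustment, so none could pass 0.05. For IMPDH2 to IMPDH1 the exact permutation p was 0.5 in input and 0.8 in footprints.

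**Figure D4:**
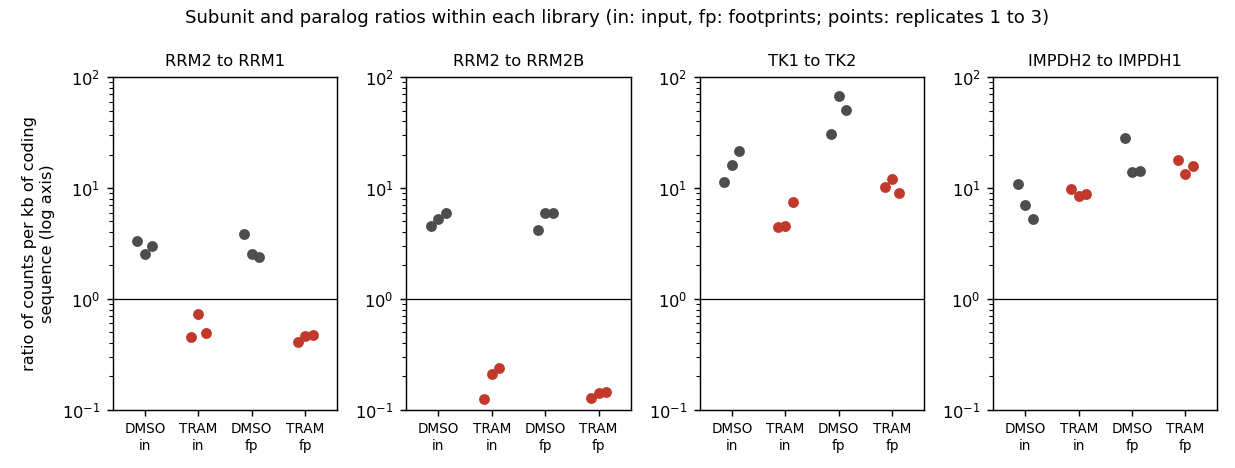
Ratio of counts per kb of coding sequence (log axis) within each library for RRM2 to RRM1, RRM2 to RRM2B, TK1 to TK2 and IMPDH2 to IMPDH1, in input (in) and footprints (fp) of DMSO (grey) and TRAM (red), with a line at equal levels. Both RRM2 ratios cross the line in every TRAM library, and the IMPDH2 ratio overlaps between treatments.

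Levels of different enzymes were compared per kb of coding sequence, as a description. In DMSO input, IMPDH2 stood highest with 3117 ± 334 normalized counts per kb (SD, n = 3), followed by TK1 with 1533 ± 391 and RRM2 with 1526 ± 184, which overlapped. TYMS (813 ± 245), GART (701 ± 219), RRM1 (528 ± 120.2) and PPAT (482 ± 79.8) came next, each overlapping its neighbour, and CAD (311 ± 36.6) and UMPS (286 ± 54.1) were lowest and overlapped. In TRAM input IMPDH2 was still highest, with 3345 ± 101, and RRM2 was last of the 9 with 63.7 ± 17.7, below TYMS with 104 ± 10.1. In DMSO footprints, TK1 (3598 ± 642), RRM2 (3121 ± 591) and IMPDH2 (2718 ± 219) stood at the top. RRM2 overlapped with TK1 and with IMPDH2, while every TK1 value was above every IMPDH2 value. In TRAM footprints the order was IMPDH2 (1953 ± 195), TK1 (882 ± 127), GART (590.2 ± 28.0) and PPAT (479 ± 37.5), with no overlap between neighbours, and RRM2 (93.7 ± 13.8) was again last. Without the length correction CAD ranks 3 rather than 8 in DMSO input, so the order holds only per kb.

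The 9 enzymes were then placed among 57 further genes of nucleotide metabolism in 7 lists, of which 56 were tested and ALDH1L2 was not. Of these 56, 27 were called lower and 7 higher in input, 28 lower and 7 higher in footprints, and 0 in ribosome density. Of all genes tested, 16.9% were called lower and 15.4% higher in input, and 25.6% and 23.8% in footprints, so that the share of lower calls was above and that of higher calls below the background in both assays. Their median change was -0.54 in input and -0.54 in footprints.

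In purine synthesis, 7 of 10 further genes were lower and 1 was higher in input, and 6 were lower and 1 was higher in footprints. PFAS, which acts between GART's steps, went from 323 ± 70.2 to 117 ± 0.480 footprints (SD, n = 3 in each), a change of -1.46 (SE 0.17, edgeR adjusted p = 1.28e-04). GMPS, which follows IMPDH2 on the way to GMP, had a footprint change of -0.84 (SE 0.13, edgeR adjusted p = 7.71e-04) and an input change of -0.94. ADSS1, the adenylosuccinate synthase known from muscle, was the exception that rose, from 36.7 ± 4.87 to 74.5 ± 9.45 footprints, a change of 1.03 (SE 0.17, edgeR adjusted p = 0.00111). IMPDH1, the paralog of IMPDH2, had changes of -0.22 in input and -0.32 in footprints that were not called. Without DMSO replicate 1 its footprint change was -0.55 and called (edgeR adjusted p = 6.26e-04).

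In pyrimidine synthesis, 2 of 4 further genes were lower in both assays. CTPS1, which turns UTP into CTP, fell from 791 ± 105 to 204 ± 13.2 footprints, a change of -1.96 (SE 0.13, edgeR adjusted p = 4.19e-06) beside -0.93 for CAD and -0.44 for UMPS. The input change of CTPS1 was -1.86. Its paralog CTPS2 had a footprint change of -0.09 (SE 0.15, edgeR adjusted p = 0.646), not called, and an input change of -0.09. DHODH, the mitochondrial enzyme between CAD and UMPS, had a footprint change of -0.84 (SE 0.15, edgeR adjusted p = 0.00154).

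In deoxynucleotide synthesis, 4 of 7 further genes were lower in input and 6 in footprints. DUT, which makes the dUMP that TYMS consumes, had a footprint change of -2.47 (SE 0.15, edgeR adjusted p = 2.68e-06). DTYMK, which phosphorylates the product of TYMS and TK1, had one of -2.03 (SE 0.20, edgeR adjusted p = 6.47e-05). Both of these neighbours of TYMS in the pathway were thus lower in both assays, with input changes of -1.92 and -2.31. NME1 and NME2, which lie in this list too, share much of their sequence, and their values are uncertain.

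In nucleoside and base salvage, 4 of 11 further genes were lower and 1 was higher in each assay. DCK, the deoxycytidine kinase, had a footprint change of -1.18 (SE 0.28, edgeR adjusted p = 0.00892). CDA, cytidine deaminase, rose from 168 ± 14.4 to 499.8 ± 19.1 footprints, a change of 1.57 (SE 0.11, edgeR adjusted p = 6.68e-06). UPP1, uridine phosphorylase, ranged from 42.0 to 684 footprints in DMSO and from 3.29 to 4.76 in TRAM, a change of -6.01 (SE 1.50, edgeR adjusted p = 0.0167). Its highest footprint value is that of DMSO replicate 1, without which the footprint change was -3.44. In input, UPP1 was not called, but it was with the replicate block (-5.69, edgeR adjusted p = 2.77e-08).

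Of 13 genes of nucleotide breakdown and dNTP control, 4 were higher and 4 lower in input, and 3 were higher and 4 lower in footprints, where the split was near the 23.8% and 25.6% of all genes tested. NT5E, the cell-surface nucleotidase CD73, had a footprint change of -2.41 (SE 0.56, edgeR adjusted p = 0.0124), which was -1.49 without DMSO replicate 1. NUDT1, which clears oxidized nucleotides, and NT5C, a cytosolic nucleotidase, had footprint changes of -1.81 and -1.09 (edgeR adjusted p = 0.0238 and 8.13e-05). Of 3 nucleoside transporters, SLC29A3 was higher in footprints, at 1.15, and SLC29A1 lower, at -0.75 (edgeR adjusted p = 0.00217 and 0.0232). The footprint calls of NUDT1, SLC29A1 and UPP1 were each lost under at least 2 alternatives that kept all libraries or left out 1, that of SLC29A1 also with the replicate block (-0.71, edgeR adjusted p = 0.0576), and that of NT5E without TRAM replicate 1.

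The folate enzymes supply the single carbons that GART's pathway and TYMS need. Of 8 tested, 5 were lower and 1 was higher in each assay. MTHFD2, a mitochondrial folate enzyme, had a footprint change of -2.10 (SE 0.28, edgeR adjusted p = 5.69e-04), with DMSO values from 2681 to 5628 and TRAM values from 828 to 939. Without DMSO replicate 1 the footprint change of MTHFD2 was -1.68 and remained a call. SHMT2, which takes the carbon from serine, had an input change of -0.58 and a footprint change of -1.25 (SE 0.14, edgeR adjusted p = 8.97e-05).

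**Figure D5:**
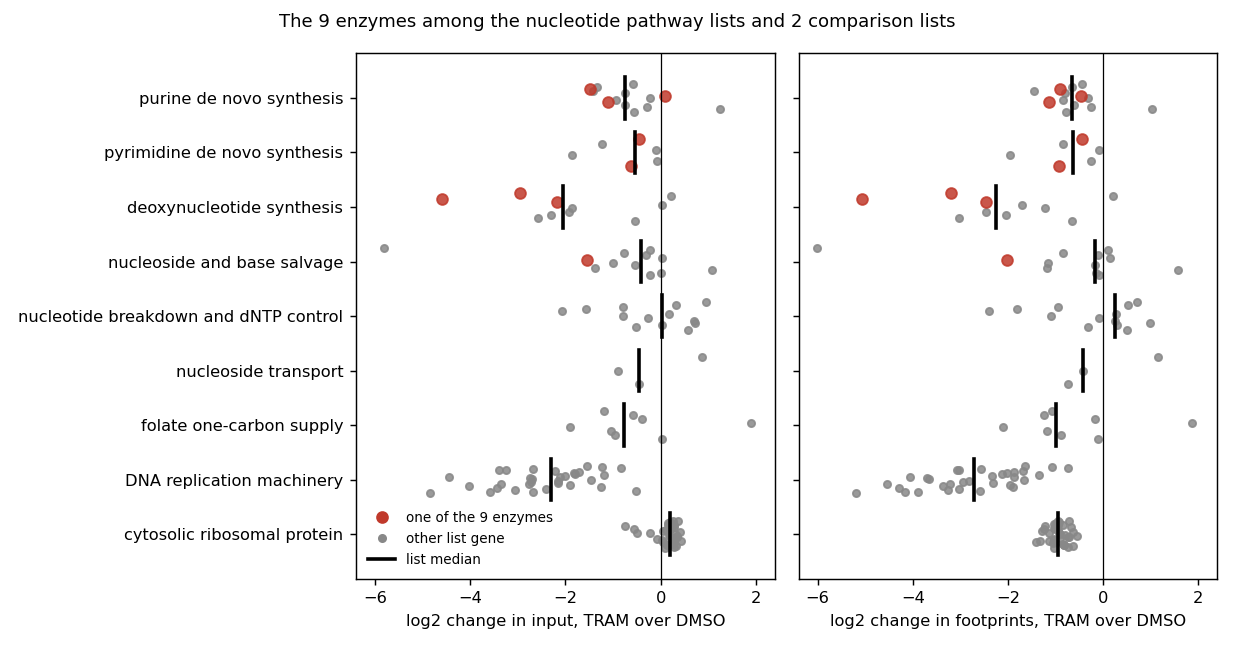
Log2 change of TRAM over DMSO in input (left) and footprints (right) for each tested gene of 7 nucleotide pathway lists, the DNA replication machinery and cytosolic ribosomal proteins, with the 9 enzymes in red, other genes in grey and list medians as black bars. Deoxynucleotide synthesis has the lowest median of the 7 lists, and the ribosomal proteins lie near 0 in input and below it in footprints.

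Set beside 2 other gene groups, the 4 enzymes of deoxynucleotide supply had values like those of the DNA replication machinery. Their medians were -2.57 in input, -2.82 in footprints and -0.37 in ribosome density. In 32 tested genes of the replication machinery, 31 were lower in input, 32 in footprints and 1 in ribosome density, with medians of -2.31, -2.71 and -0.20, and CDC45, part of the replicative helicase, was lowest in footprints at -5.19. The 1 called lower in ribosome density was DNA2, a helicase and nuclease, at -2.07 (SE 0.29, edgeR adjusted p = 0.00153), a gene named after its value was seen. The 35 cytosolic ribosomal protein genes had medians of 0.21 in input, -0.95 in footprints and -1.08 in ribosome density, where 31 of them were called lower against 0 of the 9 enzymes. RPL27, for example, had an input change of 0.05, not called, and a footprint change of -1.42 (SE 0.12, edgeR adjusted p = 2.41e-05). Among the 9, IMPDH2 alone shared the combination of an input change that was not called and above 0 with a footprint change called lower, and its ribosome density change of -0.58 lay above the median of the ribosomal protein genes. The differences between these groups were not tested.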

How the data were processed

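Ribosome profiling was analysed in 12 libraries of HCT116 cells, in 4 groups of 3 taken from the labels, from lysates of cells treated briefly with cycloheximide. Per the study's methods, the authors removed adapters, discarded rRNA and tRNA reads with Bowtie 1.2.2, mapped reads to Gencode transcripts and counted those inside reading frames of a single gene symbol. The deposited table holds whole-number counts and size-factor normalized counts, a signal whose factors were equal to recomputed median-of-ratios factors in 12 of 12 libraries. Its log2 fold changes, adjusted p-values and gene marks by the authors (DESeq2 1.46.0) were not used.

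Tested were the 10663 genes with 10 or more counts in 3 or more input libraries, with edgeR 4.0.16 (quasi-likelihood, robust, two-sided) in R 4.3.3 and Benjamini-Hochberg adjustment. Input and footprints were fitted over their 6 libraries each, and ribosome density as the interaction of assay and treatment over 12. Alternatives used DESeq2 1.42.0, limma 3.58.1, other scalings, filters and replicate blocks. The scripts were tested on simulated data. Ratios were tested by exact permutation. Because libraries are scaled to each other, a change shared by all mRNAs cannot be seen.

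The enzymes, the gene lists and the tests were chosen with earlier results of these data known. In each pathway list the 3 genes with the strongest called footprint change are named, with the paralogs and, for each comparison list, its strongest gene. Some genes that this rule names, and 1 marker, are not reported here. Coding lengths and coordinates are from MANE Select transcripts of Gencode v44 (GRCh38), in place of the RefSeq proteins planned, and promoters from RefSeq (GRCh38.p14), where 8 of 9 enzymes matched. Deviations of same-numbered DMSO and TRAM libraries from their group means correlated over 7669 genes with r of 0.07, 0.05 and 0.33 in input. In footprints the r was 0.12, 0.13 and 0.29. The main fits of both assays were not paired. A blocked footprint value is given if it changes a call. In input, the block by replicate number gave 2085 genes called lower and 1975 higher, against 1798 and 1644 without it.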

Additional observations from a re-analysis of the deposited data

How the results depend on the processing

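Of 468 changes of the 9 enzymes under alternatives, 443 had the direction and the call of the reported value, as did 742 of 779 of the other named genes. Of 256 counts and ratios, 242 stayed within 1.5 times or 1 SD, while 16 of 18 ranks of the enzymes by level in DMSO moved without the length correction. TYMS, RRM1, RRM2, TK1, CAD, PPAT and GART were called lower in input and footprints throughout. In ribosome density, 1 enzyme, IMPDH2, was called lower with DESeq2 and 1, the same, with the replicate block for each dish. The replicate block by number changed no call of the 9 in input, footprints or ribosome density and gave 9 genes with higher and 111 with lower ribosome density. Over all genes, 7 had higher and 111 lower ribosome density, which became 35 and 81 with library totals, 35 and 150 with DESeq2, 18 and 148 with the dish block and 14 and 143 without DMSO replicate 1 in both assays, an alternative chosen after seeing the data. Library totals move the ribosome density median of all genes to 0.18; the cause of the other differences was not tested. Leaving out each library in turn gave 1 to 14 genes with higher ribosome density and 1084 (without TRAM replicate 2) to 1748 (without DMSO replicate 1) with higher input.

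Estimates near 0 changed sign, and none of them was called. The footprint change of CTPS2 was 0.089 with library totals and ranged from -0.22 to 0.030 when libraries were left out, as its input change did from -0.23 to 0.0040. The input change of IMPDH1 ranged from -0.41 to 0.062 and that of TK2 from -0.029 to 0.10. The ribosome density change of GART was 0.035 with TMM and 0.13 with library totals and ranged from -0.32 to 0.20 when libraries were left out, and that of UMPS was -0.0062 with separate size factors and ranged from -0.12 to 0.15. The SE of the ribosome density change was largest for TYMS and RRM1 (0.44 and 0.41). The fit behind these SEs does not match input and footprints by dish. Per dish, the SD of log2 density for TYMS was 0.21 in DMSO and 0.24 in TRAM. It was 0.36 and 0.26 for RRM1, and 0.32 and 0.32 for TK1. RRM2 had at most 34 input reads in a TRAM library, with an SE of 0.22 for its input change.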
